A study of Mus musculus with 9 samples.

Results

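The 10 genes described here, Trem2, Tyrobp, Gpnmb, Spp1, Lgals3, Fabp4, Fabp5, Lpl, Cd9 and Itgax, are commonly used to recognise lipid-associated macrophages. They were chosen by symbol from the 34866 genes of the deposited tables, and all 10 were found. Messenger RNA was sequenced from 9 samples of cultured primary mouse macrophages. The 3 groups of 3 samples, which the submitters called biological replicates, differed in oxygen. Standard oxygen cells spent 7 days in standard oxygen, acute hypoxia cells spent 3 hours in 1% oxygen after culture in standard oxygen, and chronic hypoxia cells spent all 7 days in 1% oxygen. All groups received alpha-MEM, serum and L929-conditioned medium, from a mouse fibroblast line that secretes the macrophage growth factor CSF1. The strain, genotype and age of the mice and the tissue that gave the cells are not given in the sources used here.

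TREM2 is a receptor on macrophages, microglia and osteoclasts that binds lipids and lipoproteins. It has no signalling tail of its own and relies on the adaptor TYROBP (DAP12), whose phosphorylated motif recruits the kinase SYK. In adipose tissue, atherosclerotic plaques and the diseased brain, macrophages that take up lipid switch on a shared set of genes, among them those for the glycoprotein GPNMB, the secreted integrin ligand osteopontin (Spp1), galectin-3 (Lgals3), the fatty acid chaperones FABP4 and FABP5, lipoprotein lipase (Lpl), the tetraspanin CD9 and the integrin chain CD11c (Itgax).

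All 10 genes are protein-coding in GENCODE release M21 on GRCm38. Trem2 lies at chr17:48346401-48354147 on the plus strand and its adaptor Tyrobp at chr7:30413760-30417585 on the plus strand. Gpnmb lies at chr6:49036546-49070929, Spp1 at chr5:104435118-104441050 and Lgals3 at chr14:47367751-47386160, all on the plus strand. Fabp4 (chr3:10204088-10208576, minus strand) and Fabp5 (chr3:10012548-10016607, plus strand) lie on the same chromosome. Lpl lies at chr8:68880491-68907448 and Itgax at chr7:128129547-128150657, both on the plus strand, and Cd9 at chr6:125460266-125494791 on the minus strand.

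The RefSeq promoter table (GRCm38.p6) held 6 of the 10 genes: Trem2, Gpnmb, Spp1, Lgals3, Cd9 and Itgax. The 250 bases upstream of the start are shown for the 3 genes that set the main contrast in these data, Trem2 and Spp1, whose levels varied together, and Gpnmb, whose level varied separately from both. The windows are chr17:48346151-48346400 for Trem2, chr6:49036268-49036517 for Gpnmb and chr5:104434861-104435110 for Spp1, all on the plus strand and read 5′ to 3′. Capitals mark matches, on either strand, to 6 motifs. For the core of the hypoxia response element the letters searched were ACGTG and, as a variant, GCGTG. For the E-box of MiT/TFE factors they were CACGTG (which contains the first core) and its variant CATGTG, for AP-1 they were TGANTCA, and for PU.1 they were GAGGAAGT.
Trem2: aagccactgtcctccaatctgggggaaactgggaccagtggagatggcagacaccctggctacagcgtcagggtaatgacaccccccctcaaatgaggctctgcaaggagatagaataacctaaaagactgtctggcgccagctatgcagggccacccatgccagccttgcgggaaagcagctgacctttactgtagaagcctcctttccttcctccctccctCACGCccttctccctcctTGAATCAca
Gpnmb: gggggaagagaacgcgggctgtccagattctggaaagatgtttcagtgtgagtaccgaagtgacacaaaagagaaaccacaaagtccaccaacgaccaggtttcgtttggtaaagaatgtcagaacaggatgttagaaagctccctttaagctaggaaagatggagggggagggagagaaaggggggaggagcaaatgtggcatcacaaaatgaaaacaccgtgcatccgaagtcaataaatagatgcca
Spp1: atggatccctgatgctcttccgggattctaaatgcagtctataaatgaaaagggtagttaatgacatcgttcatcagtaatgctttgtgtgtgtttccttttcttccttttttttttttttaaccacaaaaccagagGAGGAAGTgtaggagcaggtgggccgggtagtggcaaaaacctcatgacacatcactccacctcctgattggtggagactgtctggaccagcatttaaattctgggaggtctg

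The Trem2 window held GCGTG on the minus strand, starting at base 224 of the window, and TGANTCA starting at base 242. The Spp1 window held GAGGAAGT starting at base 138, and the window of a second Spp1 start in the table held no match. None of these letters were found in the Gpnmb window, which says only that they are not in these 250 bases. Among all 32851 RefSeq mouse windows of this length, 28.157% held GCGTG, 16.572% ACGTG, 12.252% CATGTG, 6.749% TGANTCA, 6.021% CACGTG and 2.441% GAGGAAGT. The Itgax window held both TGANTCA and GCGTG, the Lgals3 window GCGTG and the Cd9 window CATGTG. These matches are a description of sequence and do not show that a factor binds there.

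The values are TPM, which correct for gene length and sum to the same total in every library, so that genes can be compared within a library. Depth is unknown, and the spread between samples is the only error available. The sample descriptions end in 4 digits that recur across the oxygen groups, and each group has 1 library of each ending. These endings sort the 9 libraries into 3 sets, here called A (WN1201, WA1201 and WC1201), B (NW1205, AW1205 and CW1205) and C (NW0308, AW0308 and CW0308). What the endings stand for is not stated. The 3 libraries of set C stood apart from the others in every group. Over 11065 genes, the median absolute difference in log2(TPM + 1) within a group was 0.12 to 0.14 between sets A and B and 0.24 to 0.31 between either of them and set C. Macrophage complement and clearance genes were among those that differed: C1qa lay between 0.910 and 3.41 TPM in the set C libraries and between 65.3 and 443 TPM in the other 6. The summed level of 5 monocyte markers was 198 to 981 TPM in the set C libraries and 43.7 to 82.2 TPM in the others. Values per library are therefore given throughout in the order A, B, C, and comparisons are given without a block, with the set as a block, and where it matters without set C.

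The labelled cell type was checked against markers. All 10 macrophage markers were above 1 TPM in at least 1 library, with a summed TPM of 61061 to 70568 in the standard oxygen libraries, 55395 to 74046 in the acute ones and 63427 to 68991 in the chronic ones. The sum hides that C1qa, which is among these markers, was far lower in the set C libraries, as given above. Of 11 dendritic cell markers, 9 were below 1 TPM in every library and Ccr7, Dpp4 and Cd209a were at 0. The dendritic sum was 3.15 to 7.60, 3.82 to 8.59 and 7.30 to 13.5 TPM in the same order of groups. Adipocytes also express Fabp4, Lpl and Pparg, but 5 of their 6 markers were below 1 TPM in every library and Cfd and Lep were at 0. The adipocyte sum was 0.245 to 1.31, 0.160 to 1.29 and 0.112 to 2.75 TPM. Fibroblast markers, 6 of 6 below 1 TPM, summed to at most 0.218 TPM. Osteoclasts also express Trem2, Gpnmb and Spp1. Their 8 markers had a summed TPM of 1009 to 1977 under standard oxygen, 893 to 1752 in the acute libraries and 2255 to 2846 in the chronic ones, mostly from Mmp9, with Calcr at 0 and Oscar and Ocstamp below 1 TPM throughout. Of 7 neutrophil markers 4 were below 1 TPM throughout, and the sum, mostly S100a8, was 898 to 1595, 941 to 1908 and 260.0 to 585 TPM. Of 5 endothelial markers 4 were below 1 TPM, and the sum, mostly Pecam1, was 10.9 to 25.8 TPM in the standard oxygen and acute libraries and 39.3 to 42.8 TPM in the chronic ones. The part of these shifts, and of the monocyte markers in set C, in the results below was not tested. In such bulk samples, fewer cells of a type and less RNA per cell cannot be told apart.

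Of the 10 genes, 9 were abundant and 1 was close to silent. Osteopontin was the most abundant. Spp1 ranked 3 or 4 among all genes in every library and made up between 1.87% and 4.76% of the TPM total. Gpnmb ranked between 17 and 49, Lgals3 between 19 and 55 and Tyrobp between 31 and 56. Lpl (37 to 119), Fabp5 (44 to 285) and Trem2 (76 to 164) followed, with Cd9 at 336 to 544 and Fabp4 at 390 to 1409. Itgax ranked between 9728 and 10783. Together the 10 genes held 2.90% to 5.98% of a library, the lowest share being that of the chronic hypoxia library of set C.

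**Figure D1:**
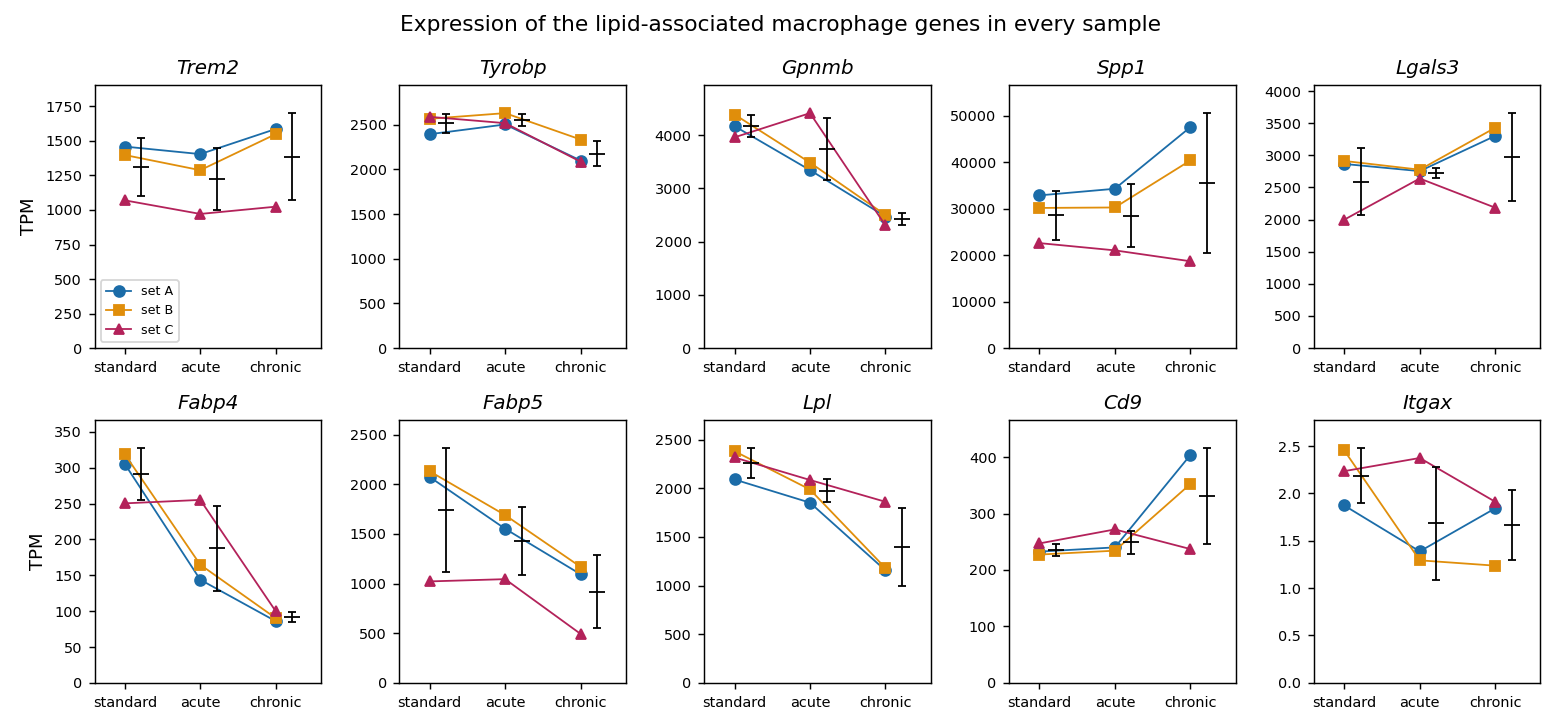
TPM (linear vertical axes from 0) of each of the 10 genes in the 9 libraries, by oxygen group, with a symbol and a joining line for each of the 3 sets and black bars for the mean and SD of 3 libraries. Fabp4 and Gpnmb step down in chronic hypoxia in every set, whereas for Trem2 and Spp1 the set C libraries lie below the others of their group.

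After 7 days in 1% oxygen, the fatty acid chaperone Fabp4 and the glycoprotein Gpnmb were lower than in standard oxygen. They were the only 2 of the 10 genes called without a block (limma on log2(TPM + 1), Benjamini-Hochberg adjusted p below 0.05), both lower. All 10 passed the filter of a mean of at least 1 TPM. The same fit called 2.69% of all 11067 genes tested, 2.10% higher and 0.596% lower. With the set as a block, 4 of the 10 were called, all lower: Fabp4, Fabp5, Gpnmb and Lpl, against 18.4% of all genes, of which 15.1% were higher and 3.30% lower. The log2 fold changes of all 10 genes in this comparison had a median of -0.24, and those of all genes tested a median of 0.16, against which the chronic values below should be read. After rescaling of the libraries by median of ratios, these medians were -0.39 and -0.001. After 3 hours in 1% oxygen, limma called 0 of the 10 genes without a block, where it called 0.0273% of all 10987 genes, and 1 gene, Fabp4, had an unadjusted p below 0.05, as did 7.14% of all genes. With the set as a block it again called 0, against 0.710% of all genes, and 2 genes had an unadjusted p below 0.05, Fabp4 and Lpl, as did 14.2% of all genes. Between chronic and acute hypoxia, 0 of the 10 were called without a block, against 0.695% of 11087 genes, with 3 at an unadjusted p below 0.05 (Fabp4, Gpnmb and Lpl), as were 20.8% of all genes. With the set as a block, 3 were called, all lower (Fabp4, Fabp5 and Gpnmb), against 15.5% of all genes, 12.1% higher and 3.42% lower. The comparisons share groups and are not independent of each other.

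The counts depended on the set C libraries. Without them, 2 libraries a group remained, and the fit without a block called 6 of the 10 genes in chronic hypoxia against standard oxygen, 4 lower (Fabp4, Gpnmb, Fabp5 and Lpl) and 2 higher (Cd9 and Spp1), against 21.1% of all genes (17.0% higher and 4.07% lower). It called 1 in acute hypoxia, Fabp4, against 2.95% of all genes, and 5 in chronic against acute hypoxia, 4 lower and 1 higher, against 16.3% of all genes (12.8% higher and 3.48% lower). For that last comparison the 5 were Fabp4, Fabp5, Gpnmb and Lpl (lower) and Cd9 (higher).

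**Figure D2:**
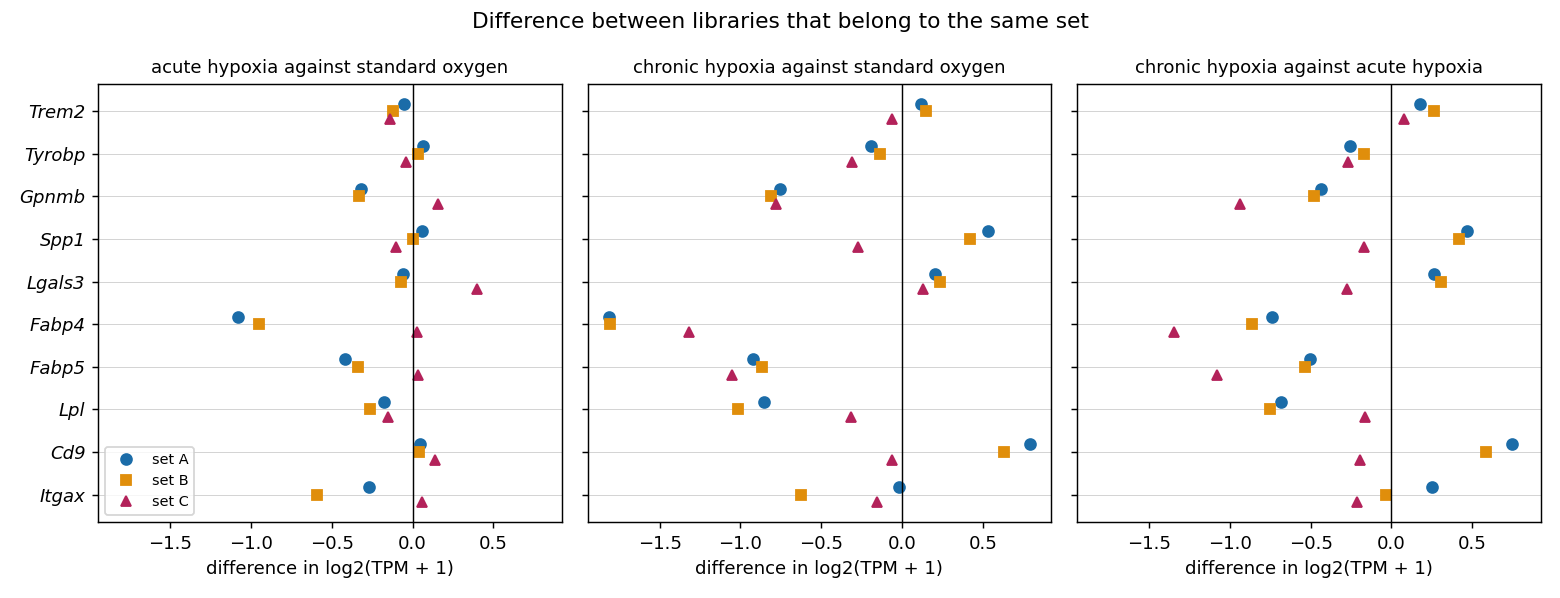
Difference in log2(TPM + 1) between the 2 libraries of the same set, for each gene and each of the 3 comparisons, with 1 symbol per set and a vertical line at 0. In chronic hypoxia against standard oxygen, Gpnmb differs by -0.75, -0.81 and -0.78, while Spp1 and Cd9 lie above 0 for sets A and B and below 0 for set C.

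Trem2, the lipid-sensing receptor, measured 1459, 1398 and 1069.7 TPM in the standard oxygen libraries, 1404, 1288 and 971 in the acute and 1586, 1549 and 1024 in the chronic ones. In each group the set C library was the lowest and the oxygen groups overlapped. The log2 fold change in chronic hypoxia was 0.07 ± 0.21 (SE, n = 3 and 3), with a limma adjusted p of 0.880, and a 95% interval of -0.45 to 0.58. With the set as a block the interval narrowed to -0.14 to 0.27, and the adjusted p was 0.557. Without the block, leaving out 1 library at a time gave log2 fold changes of -0.0702 to 0.27, and rescaling, which divides each library by its own factor, gave -0.11. In acute hypoxia the log2 fold change was -0.10 ± 0.18 (adjusted p = 0.9997 without and 0.413 with the block). Against acute hypoxia the chronic level differed by 0.18, 0.27 and 0.08 on the log2 scale in sets A, B and C. The mean difference of 0.17 ± 0.22 was not called (adjusted p = 0.706 without and 0.175 with the block). In this comparison the median log2 fold change of all genes was 0.14, and rescaling brought that of Trem2 to 0.01. No comparison of Trem2 was called over all 3 sets. Without set C, a fit with the set as a block over the 6 other libraries, chosen after the data were seen, called Trem2 higher in chronic hypoxia, by 0.13 against standard oxygen (limma adjusted p = 0.0387) and by 0.22 against acute hypoxia (0.0113). That fit called 32.8% and 28.7% of all genes in these comparisons. The median log2 fold changes of all genes in it were 0.17 and 0.14, so against standard oxygen Trem2 lay below the median gene.

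Tyrobp, the adaptor through which TREM2 signals, measured 2394, 2566 and 2588 TPM under standard oxygen, 2502, 2629 and 2517 after acute hypoxia and 2099, 2334 and 2086 after chronic hypoxia. Every chronic value lay below every value of both other groups. Of all genes, 5.39% lay lower in chronic hypoxia with no overlap with standard oxygen, and 5.50% did so against acute hypoxia. The log2 fold change against standard oxygen was -0.21 ± 0.11 (SE), and it did not pass the test without the block (limma adjusted p = 0.310) or with it (0.119). With the block and rescaling together it was -0.39, with an adjusted p of 0.0408. Over the 9 libraries, which share sets and groups, receptor and adaptor had a Pearson r of -0.15 on log2(TPM + 1).

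Gpnmb, a transmembrane glycoprotein linked to lysosomes, measured 4171, 4391 and 3962 TPM in the standard oxygen libraries, 3345, 3486 and 4416 in the acute and 2473, 2502 and 2305 in the chronic ones. The chronic libraries were close to each other and below all 6 others. Of all genes, 5.39% lay lower in this way against standard oxygen and 5.50% against acute hypoxia. Chronic libraries held 0.593, 0.570 and 0.582 times the TPM of the standard oxygen library of the same set. On the log2 scale the difference was -0.78 ± 0.11 (SE, n = 3 and 3), at a limma adjusted p of 0.0299 without and 0.0103 with the block. The call without a block was lost when either the standard oxygen library of set A or B (adjusted p = 0.170 and 0.152) or the chronic library of set A or B (0.115 and 0.146) was left out. In acute hypoxia the libraries of sets A and B held 0.802 and 0.794 times the level of their standard oxygen partners and the library of set C held 1.11 times. The acute difference was not called (log2 fold change -0.16 ± 0.13, adjusted p = 0.973). Against acute hypoxia, the chronic level differed by -0.62 ± 0.15, with an adjusted p of 0.0986 without the block and 0.0347 with it.

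Spp1, which encodes the secreted ligand osteopontin, measured 32868, 30166 and 22598 TPM under standard oxygen, 34293, 30264 and 21035 after acute hypoxia and 47549, 40387 and 18692 after chronic hypoxia. The highest and the lowest of all 9 values were thus both in chronic hypoxia. Within sets the chronic to standard ratio was 1.45 and 1.34 for sets A and B and 0.827 for set C. The log2 fold change over all 3 sets was 0.23 ± 0.38 (SE), with a limma adjusted p of 0.760 without and 0.437 with the block, and a 95% interval of -0.68 to 1.14. Without set C it was 0.48, with an adjusted p of 0.0456. The response of set C differed from the mean of sets A and B by -0.75 on the log2 scale (described with the other genes below). With 1 set C library in each group, the spread of that response is not known. After 3 hours the log2 fold change of Spp1 was -0.01 ± 0.24 (adjusted p = 0.9997), and its sign turned, to 0.03, without set C.

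Lgals3, encoding the carbohydrate-binding galectin-3, measured 2866, 2913 and 1999 TPM in the standard oxygen libraries, 2755, 2777 and 2639.6 in the acute and 3302, 3429 and 2185 in the chronic ones. The groups overlapped, and the set C library was the lowest of each group. The chronic value was above its standard oxygen partner in 3 of 3 sets, by 0.20, 0.24 and 0.13 on the log2 scale. It was not called (0.19 ± 0.24, limma adjusted p = 0.672 without and 0.137 with the block, and 0.01 on the log2 scale after rescaling), and 46.9% of all genes were higher in 3 of 3 pairs.

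Fabp4, a cytosolic carrier of fatty acids, had the largest chronic difference of the 10 genes. It measured 305, 319 and 250.3 TPM under standard oxygen, 144, 165 and 255 after acute hypoxia and 86.0, 90.2 and 99.8 after chronic hypoxia. The chronic libraries lay below all others, and the acute library of set C lay at the level of standard oxygen. Of all genes, 5.39% lay lower in chronic hypoxia with no overlap with standard oxygen, and 5.50% with none with acute hypoxia. Chronic hypoxia held 0.282, 0.283 and 0.399 times the level of the standard oxygen partner. This was a log2 fold change of -1.65 ± 0.13 (SE, n = 3 and 3), at a limma adjusted p of 0.0077 without and 0.0071 with the block. Leaving out the chronic library of set B ended the call without a block (adjusted p = 0.0654). In acute hypoxia the ratios were 0.471, 0.517 and 1.02, and the log2 fold change of -0.67 ± 0.22 was not called (adjusted p = 0.561 without and 0.313 with the block). Without set C the acute difference was -1.01, with an adjusted p of 0.0134. From acute to chronic hypoxia Fabp4 differed by -0.98 ± 0.22, with an adjusted p of 0.0860 without the block and 0.0150 with it.

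Fabp5, the second fatty acid carrier, measured 2073, 2131 and 1022 TPM in the standard oxygen libraries, 1552, 1689 and 1044 in the acute and 1093, 1168 and 493 in the chronic ones. The set C libraries were the lowest of each group, so the groups overlapped although the chronic level was lower in every set, as it was for 12.6% of all genes. The chronic to standard ratios were 0.527, 0.548 and 0.482. Without the block the log2 fold change was -0.95 ± 0.42 (SE), and limma gave an adjusted p of 0.242. With the set as a block the SE was 0.074, the 95% interval -1.14 to -0.75 and the adjusted p 0.0077. Against acute hypoxia it differed by -0.71, with an adjusted p of 0.320 without and 0.0298 with the block. For acute hypoxia these ratios were 0.748, 0.793 and 1.02, and no call was made (adjusted p = 0.375 with the block). Of the 75-base stretches of the Fabp5 transcript, 1.33% also occur in another listed gene, which could move a small part of its reads.

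Lpl, the secreted enzyme that splits the triglycerides of lipoproteins, measured 2091, 2382 and 2318 TPM under standard oxygen, 1853, 1988 and 2086 after acute hypoxia and 1156, 1180.2 and 1862 after chronic hypoxia. Standard oxygen did not overlap with either hypoxia group, and the chronic library of set C lay at the level of the acute libraries. Both contrasts ran in the same direction in all 3 sets. In chronic hypoxia the ratios were 0.553, 0.495 and 0.803, and the log2 fold change was -0.73 ± 0.20 (SE), at a limma adjusted p of 0.111 without and 0.0373 with the block. Leaving out the chronic library of set C gave an adjusted p of 0.0161 without the block. After 3 hours the ratios were 0.886, 0.835 and 0.900, a log2 fold change of -0.20 ± 0.10 that was not called (0.824 without and 0.203 with the block). In this acute comparison 4.85% of all genes were lower with no overlap between groups. In chronic hypoxia against standard oxygen 5.39% were. Of the 75-base stretches of the Lpl transcript, 2.48% also occur in other listed genes.

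Cd9, a tetraspanin of the cell surface, measured 233, 227 and 247 TPM in the standard oxygen libraries, 240.0, 234 and 272 in the acute and 404, 352 and 237 in the chronic ones. The chronic libraries of sets A and B were above all others and that of set C lay within the standard oxygen range. The log2 fold change of 0.45 ± 0.20 (SE) was not called (limma adjusted p = 0.235 without and 0.136 with the block, 95% interval -0.02 to 0.93). Without set C it was 0.71, with an adjusted p of 0.00886. Leaving out only the chronic library of set C gave an adjusted p of 0.0321.

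Itgax, encoding CD11c, a marker of dendritic cells and of macrophages in obese adipose tissue, was at the low end of the genes tested. It measured 1.87, 2.45 and 2.23 TPM under standard oxygen, 1.39, 1.29 and 2.37 after acute hypoxia and 1.84, 1.24 and 1.91 after chronic hypoxia. The groups overlapped and no comparison was called (limma adjusted p between 0.376 and 0.9994 over both fits). Of its 75-base stretches, 6.04% also occur in another listed gene, chiefly the related integrin gene Itgad. The value of Itgax is uncertain to that extent.

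The library set was itself tested over all 9 libraries with the oxygen group held in the fit (limma F test over the 2 set terms). Trem2, Spp1 and Fabp5 were called, 3 of the 10 genes, against 24.3% of all 11065 genes. Trem2 had an adjusted p of 0.00409, Fabp5 of 0.00292 and Spp1 of 0.0207. The set C libraries differed from the mean of the others by -0.50 for Trem2, -0.77 for Spp1 and -0.96 for Fabp5 on the log2 scale. Without these libraries 0 of the 10 genes were called for the set, with 0.303% of all genes called.

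Whether set C responded to oxygen differently from sets A and B was tested in a fit over all 9 libraries with terms for set C by oxygen group, added after the data were seen. The spread came from sets A and B, and the 1 set C library of each group was assumed to vary like theirs. The p-values of this fit therefore do not measure how far the response of set C would itself vary. For chronic hypoxia against standard oxygen, 3 of the 10 genes were called, against 2.91% of all 11065 genes: Spp1, Cd9 and Lpl. The response of set C differed from the mean of the others by -0.77 ± 0.0948 on the log2 scale for Cd9 (limma adjusted p = 0.0330), and by 0.62 ± 0.0772 for Lpl (0.0330), which fell less in set C. Fabp4 differed by 0.50 ± 0.0878 (0.0638) and Gpnmb by 0.0013 ± 0.0492 (0.993). For acute hypoxia, 3 were called, against 0.786% of all genes: Fabp4 (1.04, adjusted p = 0.0380), Gpnmb (0.48, 0.0402) and Lgals3 (0.46, 0.0402), all with a higher response in set C. For chronic against acute hypoxia, 6 were called, against 2.70%: Spp1, Cd9, Lgals3, Gpnmb and Fabp5 with a lower and Lpl with a higher response in set C. With rescaling, Gpnmb was no longer called in acute hypoxia (0.0552) nor Lpl in chronic against acute hypoxia (0.0537), and the other calls were kept. Trem2 was not called in any of these 3 comparisons (adjusted p from 0.174 to 0.701).

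The library sets and the oxygen groups split the 10 genes differently. The set held 89.2% of the sum of squares of Trem2, 79.3% of that of Spp1, 65.8% of that of Lgals3 and 54.0% of that of Fabp5. For Gpnmb the set held 0.772% and oxygen 90.1%, and for Fabp4 the set held 2.06% and oxygen 89.9%. Oxygen also held the larger part for Tyrobp (78.5%), Lpl (71.7%) and Cd9 (50.4%). Cd9 left 43.7% to neither source.

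**Figure D3:**
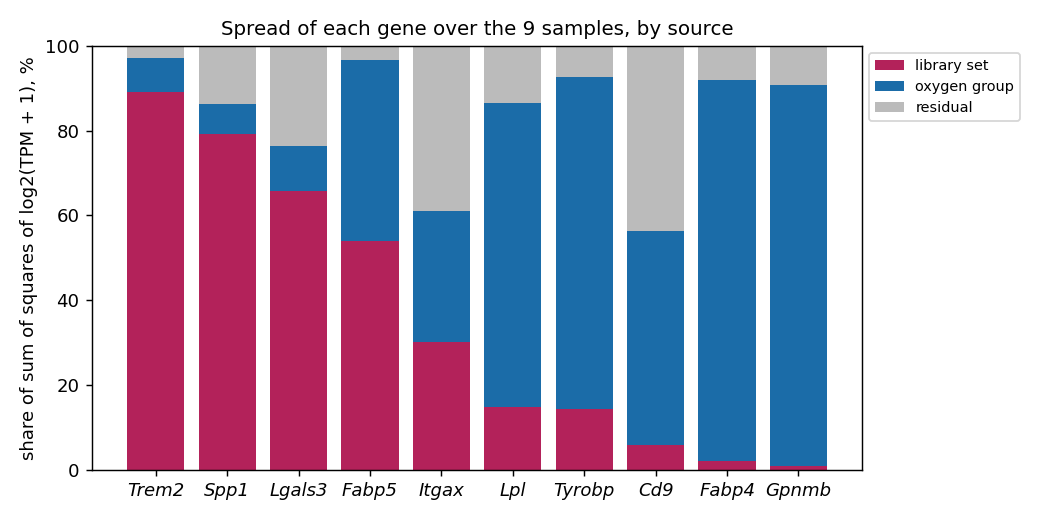
Share of the sum of squares of log2(TPM + 1) over the 9 libraries held by the oxygen group, the library set and the remainder, for each of the 10 genes. Trem2 and Spp1 are mostly split by set (89.2% and 79.3%), Gpnmb and Fabp4 mostly by oxygen (90.1% and 89.9%).

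Likeness over the 9 libraries followed the same split. Trem2 and Spp1 had a Pearson r of 0.96 on log2(TPM + 1), Spp1 and Lgals3 of 0.86 and Trem2 and Lgals3 of 0.82. Gpnmb had an r of 0.97 with Fabp4 and of 0.81 with Tyrobp, and -0.24 with Trem2. Lpl and Cd9 ran opposite to each other, at -0.91. Among 7106 genes with a mean of at least 10 TPM, the 3 most like Trem2 were Krcc1 (0.985), Prkacb (0.981) and Ppt1 (0.979). Those most like Spp1 were Tlr7 (0.990), Igfbp4 (0.979) and Gpx4 (0.974), and those most like Gpnmb were Cyfip2 (0.988), Senp2 (0.976) and Cbr3 (0.975). All these values are descriptions over 9 libraries that share 3 sets and 3 oxygen groups.

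Genes around these 10 in their pathways were described as 6 lists, all in chronic hypoxia against standard oxygen unless stated. Their counts are to be read against all genes tested, of which 22.9% had an unadjusted p below 0.05 without a block (18.9% higher and 3.98% lower), and 15.1% were called higher and 3.30% lower with the set as a block. Because the lists were chosen with earlier results of these data known, these shares give a scale for the counts and no test of a list. They give no scale for counts with rescaling added to the block. In that setting the median log2 fold change of all genes was -0.001, and 3503 of 11040 genes had an unadjusted limma p below 0.05. Among 18 tested genes of TYROBP-coupled receptors and signalling, 0 were called by limma without a block (5 at an unadjusted p below 0.05), and with the set as a block 4 were higher and 1 was lower. With rescaling added to the block, 1 was higher and 1 lower. The median log2 fold change was 0.27. Trem1, a receptor that shares the adaptor TYROBP with TREM2 and amplifies inflammatory signals, had the highest value. It measured 6.81, 6.45 and 19.0 TPM in the standard oxygen libraries, 27.0, 26.4 and 27.4 in the acute and 32.1, 36.3 and 37.5 in the chronic ones. Its chronic log2 fold change was 1.79 ± 0.38 (adjusted p = 0.0638 without and 0.0228 with the block). Syk, the kinase recruited by TYROBP, had the lowest. It measured 172, 189 and 232 TPM in standard oxygen and 122, 134 and 151 TPM in chronic hypoxia, a log2 fold change of -0.53 ± 0.15 (0.107 without and 0.0148 with the block).

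In the list of other lipid-associated and disease-associated phagocyte genes, 0 of 22 tested were called without a block (3 at an unadjusted p below 0.05), and 4 were higher and 5 lower with it. The median was -0.01. The macrophage elastase Mmp12 had the highest log2 fold change, 3.46 ± 0.78, with a limma adjusted p of 0.0742 without and 0.0023 with the block. It measured 183, 144 and 42.7 TPM in standard oxygen and 2161, 1765 and 402 TPM in chronic hypoxia, higher in 3 of 3 sets but on a lower scale in set C. Ctsd, a lysosomal protease, had the lowest, falling from 15589 ± 2351 TPM (SD, n = 3) to 9383 ± 3262 TPM, a log2 fold change of -0.79 ± 0.31 (0.197 without and 0.0345 with the block). Cd63, a lysosomal tetraspanin, measured 134, 144 and 1.58 TPM under standard oxygen, 119, 129 and 1.65 after acute hypoxia and 83.6, 89.3 and 0.295 after chronic hypoxia, so that the set C libraries held almost none of it. With the block, Mmp12, Apoc1, Ctss and Atp6v0d2 were called higher and Ctsd, Cd63, Igf1, Csf1 and Nceh1 lower. Of these, Apoc1 (0 to 4.55 TPM over the 9 libraries) and Csf1 (1.24 to 3.79 TPM) were close to the floor. With rescaling added to the block, only Mmp12 stayed among the higher and 8 genes of the list were lower.

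The lipid uptake partners and regulators of LPL and the FABPs were the list with calls in the fit without a block. Of 21 tested, limma called 3 without a block, all lower, and these were the nuclear receptor genes Pparg and Nr1h3 and the transcription factor gene Cebpa. With the block 9 were lower and 2 higher, and the median log2 fold change was -0.37. Pparg, encoding the fatty acid sensor PPARγ of which Fabp4 is a textbook target, measured 34.5, 33.9 and 33.8 TPM under standard oxygen, 12.8, 12.5 and 18.7 after acute hypoxia and 16.9, 12.2 and 13.6 after chronic hypoxia. Both hypoxia groups lay below standard oxygen in every set. Its log2 fold change was -1.22 ± 0.14 in chronic hypoxia (adjusted p = 0.0146 without and 0.0092 with the block) and -1.18 in acute hypoxia (0.0874 without and 0.0514 with the block). Nr1h3, encoding the oxysterol receptor LXRα, fell from 18.2 ± 2.80 to 8.68 ± 0.727 TPM in chronic hypoxia (log2 fold change -0.98, adjusted p = 0.0307), and measured 19.4 ± 1.30 TPM in acute hypoxia. Cebpa fell from 49.4 ± 1.37 to 31.2 ± 3.35 TPM (-0.65, adjusted p = 0.0391). Angptl4, a secreted inhibitor of LPL, had the highest value of the list, 1.26 ± 0.32, with an adjusted p of 0.0910 without and 0.0168 with the block. Angptl4 measured 2.34, 1.95 and 3.36 TPM under standard oxygen, 9.04, 9.10 and 5.99 after acute hypoxia and 5.44, 5.97 and 12.3 after chronic hypoxia. The group means were 2.55 ± 0.729 (SD), 8.04 ± 1.78 and 7.89 ± 3.79 TPM. From acute to chronic hypoxia the level was lower in sets A and B and higher in set C. Called lower with the block were also Cd36, Rxra, Cebpb, Dgat1, Pnpla2 and Lipe, which serve fatty acid uptake, transcription, triglyceride synthesis and lipolysis.

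MiT/TFE factors control lysosomal genes, Gpnmb among them. Of 8 tested genes for these factors and their regulators, limma called 0 without a block (1 at an unadjusted p below 0.05) and 1 with it, Fnip2, lower (-0.80, adjusted p = 0.0185 with the block). The highest value was that of Tfec (0.43, 0.335 with the block). Among 10 osteopontin receptors and CD11 integrins, 0 were called without a block (2 at an unadjusted p below 0.05) and 4 were higher with it: Itga4 (0.90, 0.0341), Itgb1, Itgb5 and Itgam. With rescaling added, 1 was higher and 2 were lower. Itgb3 had the lowest value, -0.76, and was not called (0.0822 with the block). Of 14 other tetraspanins and galectins, 0 were called without a block (5 at an unadjusted p below 0.05), and 2 were higher and 2 lower with it. With rescaling added to the block, 0 were higher and 3 lower. Tspan4 had the highest value (0.39, adjusted p = 0.0363 with the block and 0.165 with rescaling added) and Lgals3bp the lowest (-0.96, 0.0671 with the block). In acute hypoxia limma called 0 genes of these 6 lists without a block. At an unadjusted p below 0.05 there were 4 in the lipid uptake list, 4 in the MiT/TFE list, 3 in the TYROBP list, 1 in each of the phagocyte and integrin lists and 0 among the tetraspanins and galectins, against 7.14% of all genes. The 4 of the 8 MiT/TFE genes were all lower (Mitf, Tfeb, Flcn and Fnip2). Their number was 3 with the set as a block, where 14.2% of all genes passed, and 2 after rescaling, where 8.05% did. The median of that list was -0.39 on the log2 scale, where the median of all genes was 0.01. With the block limma called 1 gene of the 6 lists, the osteopontin and hyaluronan receptor Cd44, which measured 162 ± 5.52 TPM without hypoxia and 252 ± 13.8 TPM after 3 hours of it (log2 fold change 0.64, adjusted p = 0.0439, and 0.0509 with rescaling added).

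Against acute hypoxia, chronic hypoxia gave 1 call in these 6 lists without a block, Nr1h3, lower (log2 fold change -1.08, limma adjusted p = 0.0289). With the set as a block, which called 12.1% of all genes higher and 3.42% lower, 7 of 20 tested lipid uptake genes were lower and 0 higher, with 8 lower and 2 higher at an unadjusted p below 0.05. Those called were Nr1h3, Cebpa, Cebpb, Cd36, Fabp7, Dgat1 and Dgat2. Of the MiT/TFE list 2 were higher, Mitf (0.86, adjusted p = 0.0136) and Tfeb (0.55, 0.0216). Of 10 osteopontin receptors and CD11 integrins 4 were higher (Itgb1, Itgb5, Itga4 and Itgam) and 4 lower (Itgav, Itga5, Cd44 and Itgal). The TYROBP list had 4 of 18 higher and 1 lower, the phagocyte list 2 of 22 higher and 4 lower, and the tetraspanins and galectins 1 of 14 higher and 2 lower. With rescaling added to the block, the TYROBP list had 0 higher and 1 lower, and the phagocyte list 1 higher and 4 lower. The tetraspanins and galectins had 0 higher and 3 lower, and the integrin list 2 higher and 4 lower. The MiT/TFE list had 1 higher and 0 lower, and the lipid uptake list 0 higher and 8 lower. In that rescaled fit the median log2 fold change of all genes was -0.0005. Of 11039 genes, 3247 had an unadjusted limma p below 0.05 there. The shares of 12.1% and 3.42% belong to the block without rescaling and give no scale for the rescaled counts.

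**Figure D4:**
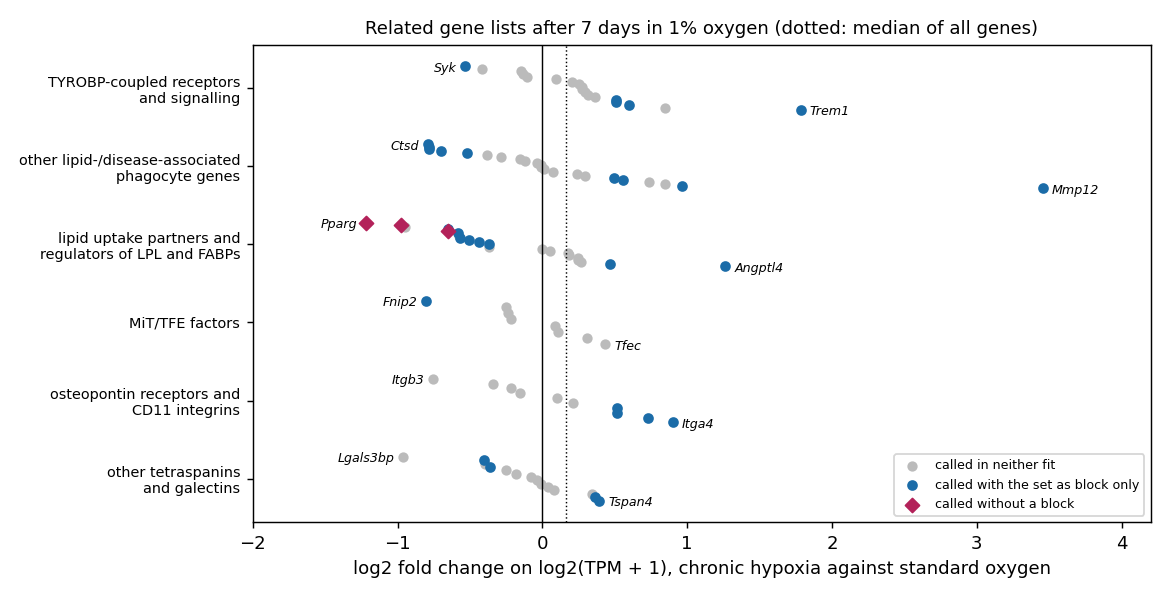
Log2 fold change on log2(TPM + 1) in chronic hypoxia against standard oxygen for each tested gene of the 6 related lists, 1 point per gene, coloured by whether limma called it without a block, only with the set as a block, or in neither fit. The dotted line marks the median of all genes, 0.16, and the 3 genes called without a block (Pparg, Nr1h3, Cebpa) all belong to the lipid uptake list.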

How the data were processed

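The values are TPM as deposited by the authors in 3 tables, 1 for each pair of oxygen groups, with 34866 genes and 6 samples each. Each column summed to 1000000 TPM, and a sample had identical values in both tables that held it. The submitters' processing notes name FastQC, STAR, featureCounts and the GRCm38 build. Versions, strand setting and the TPM step are not given in the sources used here. Libraries were made with TruSeq mRNA chemistry and read as paired ends of 75 bases, per the labels' protocols. TPM keeps no depth, so no count test and no counting error could be used, and a change in abundant genes such as Spp1 shifts all other values.

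Symbols were matched by identifier for 34582 genes. Each comparison was fitted on its 6 samples with limma 3.58.1 in R 4.3.3 (lmFit and eBayes with trend, two-sided) on log2(TPM + 1), over genes with a mean of at least 1 TPM. Fold changes are on this scale, which understates changes of low genes. P-values were adjusted by Benjamini-Hochberg over all genes tested, with a threshold of 0.05. The method was run on simulated data with independent noise and no library sets. That run therefore does not cover the set differences seen here. The labels do not say whether replicates came from separate animals or cultures, so p-values measure only the spread between these samples. The replicate numbers in the titles and the 4-digit endings of the descriptions (library sets) pair the samples differently. For the sets, deviations from group means correlated at 0.375 to 0.631 in every pair. Because set C stood apart in every group, these correlations cannot show whether libraries of sets A and B are matched rightly. The set was taken as a block from the shared endings and from these same data. The fit with this block is therefore given beside the fit without it.

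The members and lists were chosen with earlier results of these data known. Named were all 10 members, the highest and lowest tested gene of each list in chronic hypoxia against standard oxygen, and the 3 genes most like Trem2, Gpnmb and Spp1. Other genes named, such as C1qa, Cd63, Cd44, Mitf, Nr1h3 and Cebpa, were chosen after their values were seen. Alternatives were other pseudocounts, filters, rescaling by median of ratios, blocks, a fit over 9 samples, and leaving out libraries. A fit over 9 samples with terms for set C by oxygen group (2 residual degrees of freedom) was added after the data were seen.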

Additional observations from a re-analysis of the deposited data

How the results depend on the processing

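Among the 10 genes, Fabp4 and Gpnmb were called lower in chronic hypoxia against standard oxygen without a block. This count of 2 was 1 with no filter on low values, 0 with the title number as a replicate block, 4 with the library set as a replicate block (also with all 9 samples in 1 fit), 5 with that block and rescaling, 6 without set C and 9 without set C in the blocked fit over 9 samples. Of all genes, the fit without a block called 2.69% and that with the set block 18.4%. Without set C these shares were 21.1% and, in the blocked fit over 9 samples, 32.8%. With the set block and rescaling, 3503 of 11040 genes and 5 of the 10 had an unadjusted limma p below 0.05. In chronic against acute hypoxia the count of 0 was 2 with all 9 samples in 1 fit, 3 with the title number or the set as a replicate block (the pairs are the same), and 5 with the set block and rescaling, with the set block over 9 samples, or without set C. It was 9 without set C in the blocked fit over 9 samples, a choice made after seeing the data. The matching shares of all genes were 0.695% without a block and 15.5% with the set block. They were 16.3% without set C and 28.7% in that blocked fit. In acute hypoxia the count of 0 was 1 without set C and 3 without it in the blocked fit. There, limma called 0.0273% of all genes without a block and 2.95% without set C. In the blocked fit without set C, 2787 of all genes had an unadjusted limma p below 0.05, as did 4 of the 10. The test of the library set called 3 genes and, without set C, 0. The title numbers share only a number: deviations of same-numbered samples from their group means correlated at 0.395, -0.465 and -0.282 between acute hypoxia and standard oxygen and at 0.387, -0.508 and -0.279 between chronic hypoxia and standard oxygen. Leaving out 1 library at a time gave 0 to 4 genes in chronic hypoxia against standard oxygen, 0 to 1 in chronic against acute hypoxia and 0 in acute hypoxia. Counts without a share of all genes beside them are no result about these 10 genes. Signs turned for some log2 fold changes, none of them called in the fit without a block. They were near 0 except those of Spp1 in chronic hypoxia, 0.23 against standard oxygen and 0.24 against acute hypoxia. Both turned, to -0.0371 and -0.0246, only when the chronic library of set A was left out. In acute hypoxia, rescaling gave -0.00262 for Tyrobp, also with the set block, and the blocked fit without set A gave -0.00241. Leaving out set C gave 0.0330 for Spp1 and -0.0631 for Lgals3. In chronic hypoxia, rescaling gave -0.11 for Trem2. In chronic against acute hypoxia, Itgax was -0.00239 with a pseudocount of 5, -0.0920 with rescaling and -0.12 in the blocked fit without set A, and Lgals3 was -0.0600 with rescaling and -0.00537 in the blocked fit without set B. The ranges with 1 library left out were -0.24 to 0.0524 for Trem2, -0.0157 to 0.0406 for Tyrobp, -0.17 to 0.19 for Spp1 and -0.0855 to 0.19 for Lgals3 in acute hypoxia. They were -0.0702 to 0.27 for Trem2 and -0.0371 to 0.64 for Spp1 in chronic hypoxia against standard oxygen, and -0.0246 to 0.65 for Spp1, -0.0195 to 0.31 for Lgals3 and -0.10 to 0.18 for Itgax in chronic against acute hypoxia. The cause of these changes was not tested. Depth is unknown, so what it limits cannot be given.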
